A study of Mus musculus with 5 samples.

Results

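The glycogen genes of the liver were examined by RNA sequencing in db/db mice given vehicle or SR4. The set held 9 genes that make glycogen, break it down or control both processes, namely Ugp2, Gyg, Gys2, Gbe1, Pygl, Phka2, Ppp1r3b, Ppp1r3c and Ppp1r3g. Their rows were found by gene symbol, and all 9 had a row among the 11048 gene symbols of the deposited table and passed the filter on low values. db/db mice lack a working leptin receptor and are obese and diabetic. Vehicle mice (3 libraries) and SR4 mice (2 libraries) were all db/db according to the design text, and both were gavaged over 5 weeks following 1 week to acclimatize, with SR4 given at 10 mg/kg body weight. SR4 is, in the series' title, a transporter of protons that fatty acids activate. The labels used here do not give age, sex, the feeding state at tissue collection or whether the libraries are from separate animals. The p-values therefore reflect only how much the deposited values of these libraries varied, and that variation may be technical. The authors' adjustment of the values may also have altered it, and with it the overlaps between groups, which was not tested.

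The liver stores glucose after a meal as glycogen, a branched chain of glucose units, and releases it between meals. Glucose is first turned into UDP-glucose, glycogenin starts the chain, glycogen synthase lengthens it and the branching enzyme adds side chains, while glycogen phosphorylase removes glucose units from the ends. Phosphorylation switches phosphorylase on and synthase off, and protein phosphatase 1, held on glycogen by targeting subunits of the PPP1R3 family, reverses both.

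Promoter sequences from RefSeq (GRCm38.p6) were found for 7 of the 9 genes. The stretches for Gbe1, the gene with the largest fitted difference below vehicle, and Ppp1r3c, the gene with the largest fitted difference above it, are shown because their fitted changes had opposite signs. Each runs from 250 to 51 bases before the annotated start, chr16:70313699-70313898 on the plus strand for Gbe1 and chr19:36736655-36736854 on the minus strand for Ppp1r3c. Capitals mark matches to any of 4 motifs searched on both strands, the E-box CACGTG, the cAMP response element TGACGTCA, its core TGACG, which also lies within the full element, and the FOXO motif GTAAACA.
Gbe1: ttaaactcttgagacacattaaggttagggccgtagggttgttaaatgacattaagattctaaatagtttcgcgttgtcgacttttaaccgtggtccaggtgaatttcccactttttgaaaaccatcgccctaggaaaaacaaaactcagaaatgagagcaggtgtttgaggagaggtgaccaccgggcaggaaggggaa
Ppp1r3c: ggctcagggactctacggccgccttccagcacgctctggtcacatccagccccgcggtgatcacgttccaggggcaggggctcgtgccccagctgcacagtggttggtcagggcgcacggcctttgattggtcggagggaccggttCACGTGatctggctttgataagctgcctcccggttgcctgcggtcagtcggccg
The single capital stretch is the E-box CACGTG, beginning 104 bases before the Ppp1r3c start. CACGTG was present in 7.15% of all 32851 promoter windows of 300 bases, and in those of 2 of the 7 glycogen genes, Ppp1r3c and Gyg (2 of their 8 windows). The Gyg match lay after the start and overlapped its match to TGACG, and the fitted change of Gyg was below 0. Other forms of the E-box were not searched. The core TGACG of the cAMP response element was present in 20.8% of all windows and in those of 3 of the 7 genes (3 of the 8 windows). The full element (1.79% of all windows) and the FOXO motif (3.65%) were in none of the 7.

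The deposited columns had been adjusted by the authors to nearly equal totals, between 25494141 and 25494437. The commonest value near 1 ran from 0.92 in SR4 library 1 to 1.08 in vehicle library 3. Low values shifted with the other libraries of the same group, so these values do not order the libraries by depth. Normalised counts below are the deposited values divided by TMM scaling factors, with mean ± SD over n = 3 vehicle and n = 2 SR4 libraries. Of 10542 genes tested with limma, 138 passed at an adjusted p under 0.05, which is 1.31%. Leaving out vehicle 1 left 116, leaving out vehicle 2 left 8 and leaving out vehicle 3 left 5. The summed hepatocyte markers (7 of 7 measured, Alb highest) overlapped between groups, at 2106818 to 2745949 normalised counts in vehicle and 2261027 to 2839323 in SR4. Of these 7 markers, 3 lay above the vehicle range in both SR4 libraries (Cps1, fitted 2.26-fold, Serpina1a, 1.81-fold, and Fgb, 1.58-fold), against 21.5% of all genes. Below it lay 1 (Apob, 1.53-fold lower), against 20.2% of all genes, and 0 of the 7 passed in limma. Summed blood markers (5 of 5) ran from 11176 to 15051 and from 7920 to 8745, with Hbb-bs, a beta-globin gene, 2.24-fold lower in SR4 (limma adjusted p = 0.0337). Both SR4 libraries lay below the vehicle range for 4 of the 5, against 20.2% of all genes. The groups overlapped for Alas2, whose log2 fold change was 0.23. Summed stellate cell markers (6 of 6) ran from 3492 to 6778 and from 2369 to 3223, and summed macrophage markers (5 of 6) from 2837 to 3685 and from 1481 to 2901. Both SR4 libraries lay below the vehicle range for 2 of the 6 stellate markers, the collagen genes Col1a1 and Col3a1. The same held for 2 of the 5 macrophage markers, Cd68 and Csf1r, against 20.2% of all genes. The groups overlapped for the other markers of both lists. The part of blood, stellate cell and macrophage markers in the results below was not tested. In whole liver fewer cells of a type, less RNA per cell and changes of single markers cannot be told apart. Sinusoidal endothelial markers (5 of 5) overlapped, at 2338 to 3308 and 1852 to 3273. Skeletal muscle markers (7 of 7), which include the muscle phosphorylase Pygm, summed to 28.8 to 56.3 and 28.3 to 37.5, and Ckm was listed at 0 in all 5 libraries. Bile duct and adipocyte lists had 1 of 5 markers each in the table, Spp1 and Cfd, and both overlapped between groups.

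In the SR4 livers the genes for making UDP-glucose, lengthening and branching glycogen and releasing its glucose all had lower levels than in every vehicle library, but by margins that did not pass the test over all genes. Both SR4 libraries lay below all 3 vehicle libraries for 5 of the 9 genes, Ugp2, Gys2, Gbe1, Pygl and Ppp1r3b, against 20.2% of all genes tested. The groups overlapped for the other 4. No gene had both SR4 libraries above the vehicle range, against 21.5% of all genes. With limma 0 of the 9 genes passed at an adjusted p under 0.05, against 1.31% of all genes. An unadjusted p under 0.05 was found for 5 of the 9 (Ugp2, Gys2, Gbe1, Ppp1r3b and Ppp1r3c), against 21.4% of all genes. The fitted change was below 0 for 7 of the 9, against 50.6% of all genes, and the median log2 fold change was -0.37, against -0.0043 over all genes. Left unscaled beyond the authors' equal totals, the median was -0.49 for the glycogen genes and -0.13 for all genes.

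**Figure D1:**
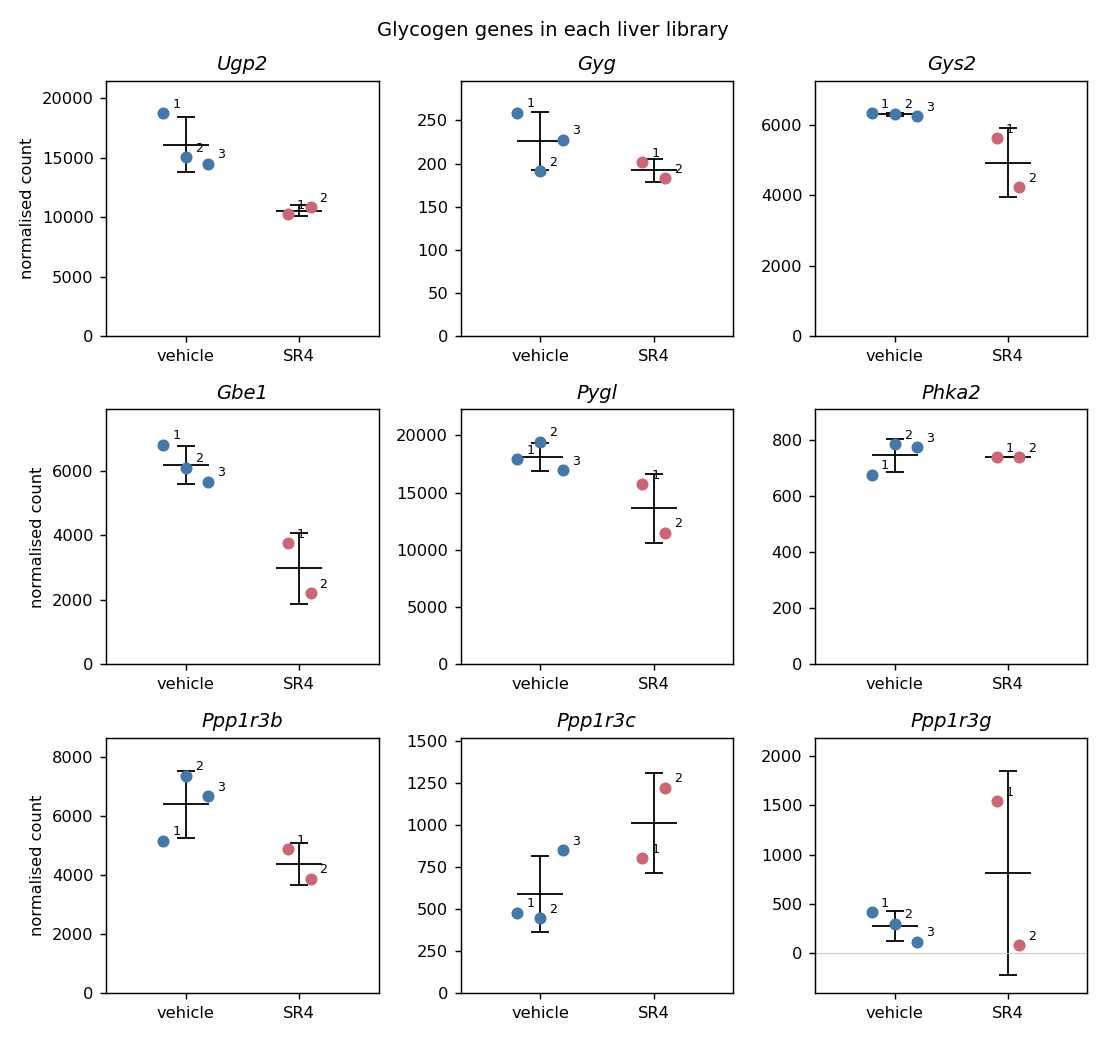
Normalised counts (vertical axis) of the 9 glycogen genes in vehicle (blue) and SR4 (red) livers, 1 point per library with its replicate number, and black bars for mean ± SD. Ugp2, Gys2, Gbe1, Pygl and Ppp1r3b had both SR4 points below all vehicle points, and Ppp1r3g had its highest and its lowest value in the 2 SR4 libraries.

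Per kilobase of annotated exon, the levels in vehicle livers spanned from UDP-glucose production at the top to the primer protein at the bottom. Ugp2 led with 5238 ± 753 normalised counts per kb. Pygl followed at 2625 ± 180 and Gys2 at 2371 ± 18.0, and their vehicle ranges did not overlap. Gbe1 at 1156 ± 108 and Ppp1r3b at 1028 ± 182 overlapped. Ppp1r3c stood lower at 217 ± 82.7, and Phka2 (123 ± 9.82), Ppp1r3g (104 ± 56.4) and Gyg (96.4 ± 14.5) ended the order, each overlapping its neighbour within that trio. This order depends on the exon lengths used, 6895 bases for Pygl, 3069 for Ugp2 and 2657 for Gys2. Undivided by length, the vehicle mean of Pygl (18100 normalised counts) was above that of Ugp2 (16077), with overlapping vehicle ranges. Gys2 was at 6300.

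Ugp2 encodes UDP-glucose pyrophosphorylase, which makes the glucose donor for glycogen synthase (chromosome 11, 21321138 to 21371201, minus strand, GRCm38). Its normalised counts were 18725, 15023 and 14482 in vehicle libraries 1, 2 and 3 and 10242 and 10858 in SR4 libraries 1 and 2. Both SR4 libraries were close to each other and under the lowest vehicle library, so Ugp2 was the gene of this set with non-overlapping groups whose SR4 values agreed best. The fitted log2 fold change was -0.60 (SE 0.17, 95% interval -0.99 to -0.21), with a limma adjusted p of 0.114. An annotated gene on the opposite strand, Gm12043, overlaps Ugp2 exons, and reads of both cannot be separated in a library kit that does not keep strand.

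Gyg encodes glycogenin, the protein that primes a new chain (chromosome 3, 20122084 to 20155317). It had 259, 191 and 228 normalised counts in vehicle and 202 and 183 in SR4. The groups overlapped, and the log2 fold change of -0.22 had a 95% interval from -0.66 to 0.21 (limma adjusted p = 0.518).

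Gys2 encodes the liver form of glycogen synthase (chromosome 6, 142422613 to 142473109). The vehicle libraries were nearly equal, at 6336, 6318 and 6246 normalised counts, and the SR4 libraries were at 5615 and 4229. Both SR4 values were below the narrow vehicle range, library 2 more than library 1. The log2 fold change was -0.37 (SE 0.15, 95% interval -0.73 to -0.011, limma adjusted p = 0.222), and it was -0.57 without SR4 1 and -0.17 without SR4 2.

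Gbe1, the glycogen branching enzyme (chromosome 16, 70313949 to 70569716), had the largest difference of the enzymes. Its normalised counts were 6808, 6094 and 5659 in vehicle and 3754 and 2202 in SR4. SR4 library 1 stood at 60.7% and SR4 library 2 at 35.6% of the vehicle mean, and both were well under the lowest vehicle library. The mean went from 6187 ± 580 to 2978 ± 1098, a fitted 2.15-fold lower level (log2 fold change -1.10, SE 0.23, 95% interval -1.65 to -0.55), with a limma adjusted p of 0.0738. Without SR4 1 the log2 fold change was -1.48 and passed (limma adjusted p = 0.0228, within 0.0228 to 0.204 over 12 alternatives); without SR4 2 it was -0.72.

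Pygl encodes the liver glycogen phosphorylase, which releases glucose units from glycogen (chromosome 12, 70190811 to 70231488). It had 17908, 19425 and 16966 normalised counts in vehicle and 15745 and 11486 in SR4. Both SR4 libraries were below the vehicle range, SR4 1 only slightly. The log2 fold change was -0.43 (SE 0.18, 95% interval -0.86 to 0.0052, limma adjusted p = 0.236), and -0.20 without SR4 2. Phka2, the liver alpha subunit of phosphorylase kinase, the enzyme that switches phosphorylase on (chromosome X, 160502166 to 160598878), had 676, 785 and 773 in vehicle and 739 and 738 in SR4. Both SR4 values lay inside the vehicle range, with a log2 fold change of -0.0093 and a 95% interval from -0.28 to 0.27 (limma adjusted p = 0.973), and its sign turned in 3 of the 12 alternatives. An antisense gene, Gm15243, overlaps Phka2 exons, so antisense reads cannot be separated here.

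**Figure D2:**
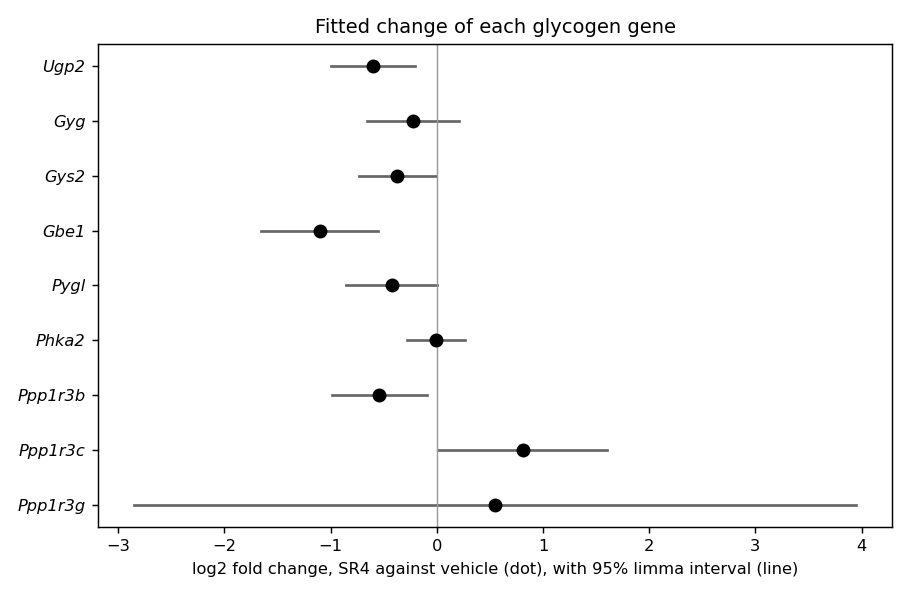
Fitted log2 fold change of SR4 against vehicle (dots, horizontal axis) with the 95% limma interval (lines), 1 gene per line. The intervals of Ugp2, Gys2, Gbe1 and Ppp1r3b lay below 0 and that of Ppp1r3c above 0 before adjustment, and that of Ppp1r3g ran from -2.85 to 3.95.

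Ratios within a library compared the steps of the pathway with each other. The size of each ratio per kb depends on the exon lengths used, which were the same for every library. Synthase relative to phosphorylase overlapped between the groups, while branching enzyme relative to either was lower in both SR4 libraries than in any vehicle library. The ratio of Gys2 to Pygl per kb was 0.918, 0.844 and 0.955 in vehicle and 0.926 and 0.956 in SR4, with overlapping groups (two-sided exact permutation p = 0.4). The ratio of Gbe1 to Gys2 per kb was 0.533, 0.479 and 0.450 in vehicle and 0.332 and 0.258 in SR4. The groups did not overlap, and the two-sided exact permutation p of 0.2 is the smallest that 3 against 2 libraries can give. Gbe1 to Pygl likewise did not overlap, from 0.441 ± 0.0440 to 0.277 ± 0.0426 (two-sided exact permutation p = 0.2), while Ugp2 to Gys2 overlapped, at 2.21 ± 0.304 and 1.90 ± 0.455 (two-sided exact permutation p = 0.6). Over the 8 ratios, shares and sums compared this way, the smallest Benjamini-Hochberg adjusted exact p was 0.533.

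The 3 targeting subunits of protein phosphatase 1 in this set had fitted changes of unlike sign, none of which passed. Any other PPP1R3 subunit in the table was left out of the sums and shares below. Ppp1r3b, the main targeting subunit of liver (chromosome 8, 35375739 to 35388139), had 5152, 7363 and 6662 normalised counts in vehicle and 4869 and 3877 in SR4. Both SR4 libraries were below the vehicle range, SR4 1 just under vehicle 1. The log2 fold change was -0.54 (SE 0.19, 95% interval -0.99 to -0.091, limma adjusted p = 0.170).

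Ppp1r3c, also called PTG (protein targeting to glycogen), lies on chromosome 19, 36731731 to 36736653, and had 478, 443 and 850 normalised counts in vehicle and 801 and 1219 in SR4. SR4 2 was the highest library, but SR4 1 was below vehicle 3, so the groups overlapped. The log2 fold change was 0.81 (SE 0.33, 95% interval 0.013 to 1.60, limma adjusted p = 0.228), and 0.50 without SR4 2.

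Ppp1r3g, a subunit whose mRNA in mouse liver is known to be higher in fasting than after feeding (chromosome 13, 35958839 to 35970388), had 419, 301 and 117 normalised counts in vehicle and 1542 and 83.6 in SR4. The SR4 libraries were the highest and the lowest of all 5, and the vehicle libraries already differed 3.57-fold between highest and lowest. SR4 1 was at 553% and SR4 2 at 30.0% of the vehicle mean. The log2 fold change of 0.55 had an SE of 1.33 and a limma adjusted p of 0.849, and it was -1.54 without SR4 1 and 2.65 without SR4 2. No direction can therefore be given for Ppp1r3g.

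**Figure D3:**
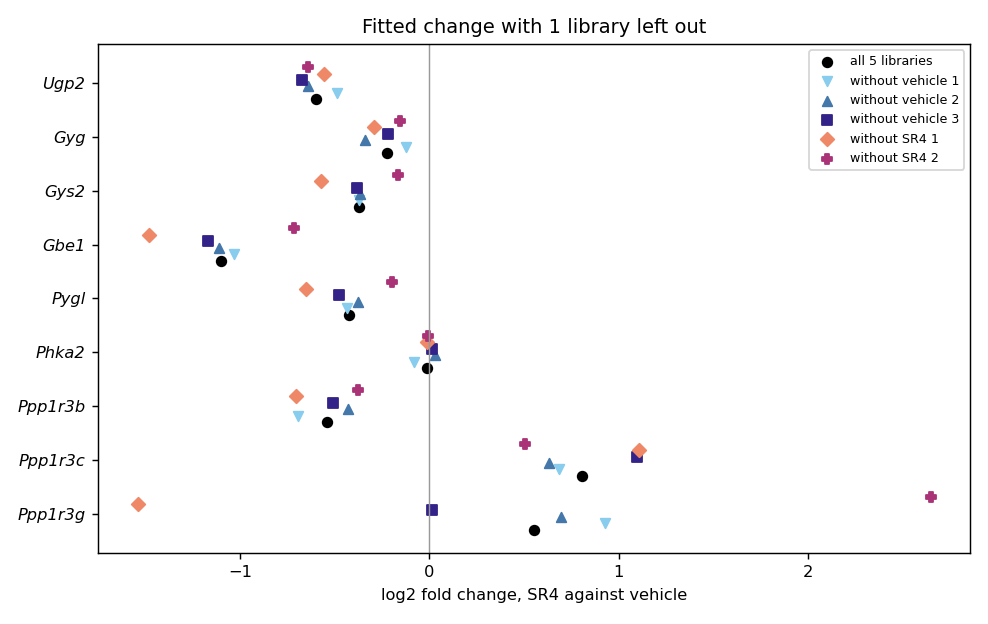
Log2 fold change of SR4 against vehicle (horizontal axis) with all 5 libraries (black) and with each library left out (coloured symbols). Ugp2 stayed between -0.67 and -0.49, Gbe1 ran from -1.48 to -0.72, and Ppp1r3g ran from -1.54 to 2.65.

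Added up per kb, the 3 subunits gave 1160, 1459 and 1427 normalised counts per kb in vehicle and 1650 and 1102 in SR4, with overlapping groups (two-sided exact permutation p = 1). Ppp1r3b was 71.5%, 81.2% and 75.1% of that sum in vehicle and 47.5% and 56.6% in SR4, without overlap (two-sided exact permutation p = 0.2, the smallest possible here). In SR4 1 the rest was mostly Ppp1r3g (34.7%), and in SR4 2 it was mostly Ppp1r3c (40.6%). The shares of Ppp1r3c and of Ppp1r3g overlapped between the groups (two-sided exact permutation p = 0.4 and 0.8).

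**Figure D4:**
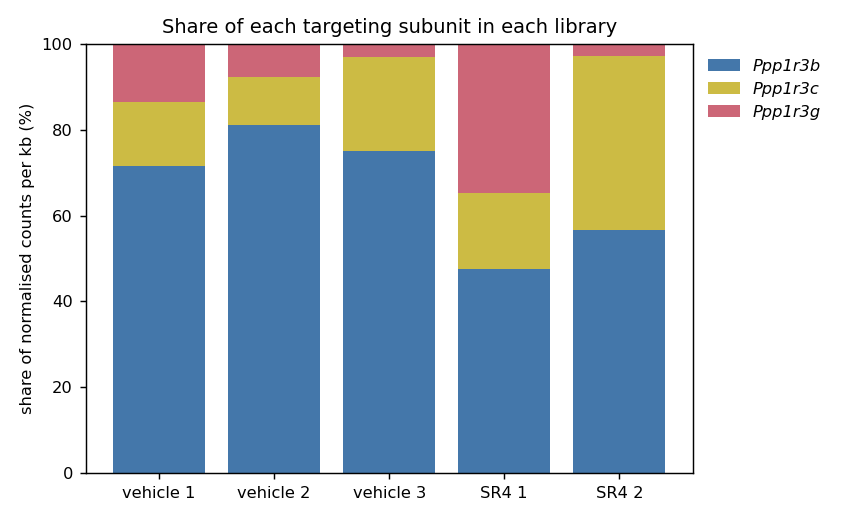
Share of Ppp1r3b (blue), Ppp1r3c (yellow) and Ppp1r3g (red) in their summed normalised counts per kb (vertical axis, percent), 1 bar per library. Ppp1r3b made up 71.5% or more in the vehicle libraries and 56.6% or less in the SR4 libraries.

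The SR4 libraries also differed from each other. Of the 9 genes, 7 were lower in SR4 2 than in SR4 1, with Ugp2 and Ppp1r3c higher, and 50.7% of all genes tested were lower in SR4 2. The 7 include Phka2, which was nearly equal in both (739 and 738 normalised counts). SR4 2 was at 58.6% of SR4 1 for Gbe1, at 75.3% for Gys2 and at 73.0% for Pygl, and at 106% for Ugp2. G6pc, the glucose-6-phosphatase that frees glucose for export, had 16990.3, 13276 and 12619 in vehicle and 12519 and 7796 in SR4 (log2 fold change -0.52, limma adjusted p = 0.269).

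In the lists around the pathway no gene passed over all genes either, against 1.31% of all genes tested. Of 18 other glycogen enzymes and subunits 14 were in the table; 0 passed, 4 had an unadjusted p under 0.05, and the median log2 fold change was -0.26. Against these 4, 21.4% of all genes had an unadjusted p under 0.05. The SR4 libraries lay below the vehicle range for 5 of the 14 (20.2% of all genes) and above it for 4 (21.5% of all genes). Of the phosphorylase kinase subunits, 2 more had fitted changes of opposite sign. Phkb, the beta subunit, had 635, 586 and 590 in vehicle and 428 and 466 in SR4 (log2 fold change -0.43, limma adjusted p = 0.107), and Phkg2, the liver catalytic subunit, had 426, 503 and 485 in vehicle and 709 and 616 in SR4 (log2 fold change 0.49, limma adjusted p = 0.110). Pgm2, a phosphoglucomutase, had 5333, 6450 and 5558 in vehicle and 7670 and 7752 in SR4 (log2 fold change 0.42, limma adjusted p = 0.150).

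Of 9 genes of glucose entry and exit 8 were in the table and 0 passed, with 2 at an unadjusted p under 0.05 (21.4% of all genes) and a median of -0.24. Beside G6pc, Hk2, a hexokinase that is low in healthy hepatocytes, had 290, 131 and 326 normalised counts in vehicle and 89.2 and 95.9 in SR4 (log2 fold change -1.31, limma adjusted p = 0.135). A list of 24 control genes held regulators of the glycogen enzymes and genes of hormone signals such as the glucagon response. Of these 23 were measured and 0 passed, with 6 at an unadjusted p under 0.05 (21.4% of all genes) and a median of 0.079. Both SR4 libraries lay above the vehicle range for 8 of the 23, against 21.5% of all genes, and below it for 3, against 20.2%. Crtc2, a CREB coactivator of the glucagon response, had 543, 599 and 667 in vehicle and 1042 and 916 in SR4, the smallest p of the genes listed for the pathway (log2 fold change 0.70, limma adjusted p = 0.0615). Sik1, a kinase that restrains CRTC proteins and is itself a CREB target, had 874, 414 and 861 in vehicle and 2502 and 1486 in SR4 (log2 fold change 1.51, limma adjusted p = 0.114). Ppp1cc, a catalytic subunit of the phosphatase that PPP1R3 proteins bring to glycogen, had 1538, 1452 and 1474 in vehicle and 1821 and 2120 in SR4 (log2 fold change 0.40, limma adjusted p = 0.116).

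All 8 genes of UDP-glucose use and galactose entry were measured and 0 passed, with 2 at an unadjusted p under 0.05 (21.4% of all genes) and a median of -0.22. Galt, which exchanges galactose into UDP-galactose, had 967, 1265 and 1247 in vehicle and 1854 and 1548 in SR4 (log2 fold change 0.56, limma adjusted p = 0.117). Uggt1, which uses UDP-glucose to mark misfolded glycoproteins, had 1345, 1491 and 1371 in vehicle and 1309 and 1014 in SR4 (log2 fold change -0.28, limma adjusted p = 0.292).

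**Figure D5:**
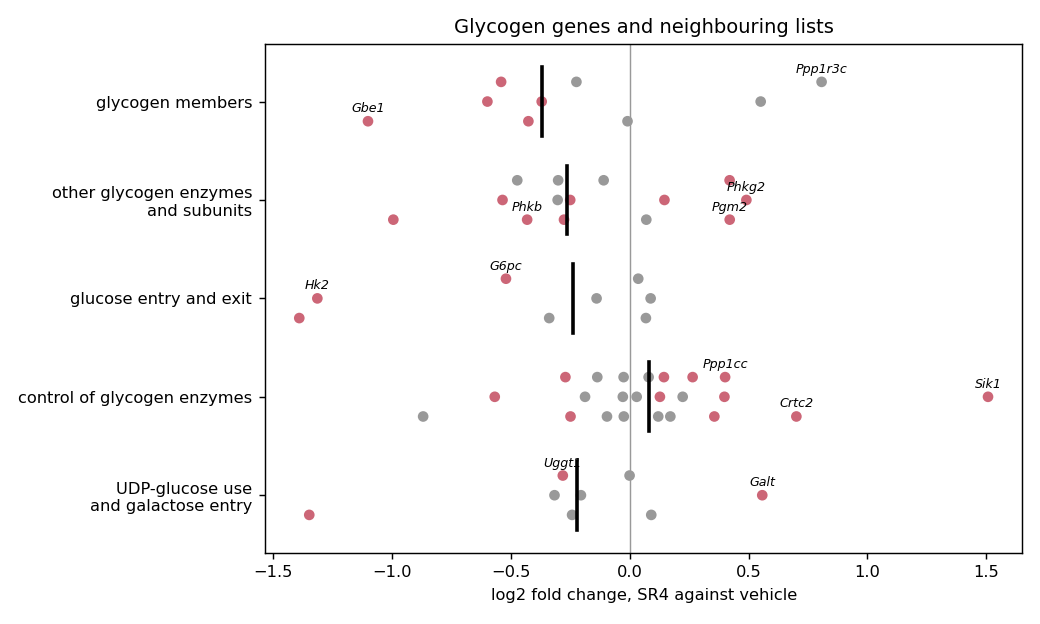
Log2 fold change of SR4 against vehicle (horizontal axis) for the 9 glycogen genes and 4 neighbouring lists, 1 point per gene, red where the SR4 libraries lay outside the vehicle range and grey where they overlapped it, with black bars at list medians. The medians were -0.37 for the glycogen genes, -0.26, -0.24 and -0.22 for the other enzymes, glucose entry and exit and UDP-glucose use, and 0.079 for the control genes.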

How the data were processed

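Liver RNA was sequenced in 5 libraries from 500 ng of total RNA each, with a TruSeq RNA V2 kit, per the labels' protocols. Tools in the submitters' processing notes were TopHat2 2.1.1 and Partek, with build GRCm38 (mm10). The counter and annotation were not given in those sources. The values deposited are a signal, gene read counts brought by the authors to 1 library size, as their nearly equal column totals show. Low values lay near whole reads but shifted with the other libraries of the same group, so the adjustment may have been made within each group. This could alter the SDs, overlaps and p-values given here, and its effect was not tested. Because whole reads could not be had from the values, tests made for raw counts were not used.

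Of 11065 rows, 17 held a calendar date in place of a symbol (0.18% of all values) and were left out. The test was limma 3.58.1 (R 4.3.3) on log2(value + 1) after TMM scaling factors computed here (30% of M and 5% of A trimmed), for genes at 10 or more in at least 2 libraries, with a mean trend, robust shrinkage and Benjamini-Hochberg adjustment over 10542 genes. Fold changes on the log2(value + 1) scale understate the change of low genes. Levels per kb used the union of GENCODE M21 (GRCm38) exons, and coordinates come from that annotation. Ratios were tested by exact permutation in SciPy 1.17.1. Depth is known only through the adjusted totals, so no counting interval is given.

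The 9 genes and all lists were chosen with earlier results of these data known. All 9 glycogen genes were named. From each other pathway list the passing genes, or otherwise the 3 with the smallest p, were named, except 2 that are not reported here. Alternatives were other scalings (RLE, equal totals), filters and pseudocounts, a block for replicate number, and leaving out each library in turn.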

Additional observations from a re-analysis of the deposited data

How the results depend on the processing

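The 12 alternatives gave 108 values for the 9 glycogen genes, of which 4 changed sign and 2 changed their side of the threshold. Leaving out 1 library at a time gave 5 to 191 passing genes over the whole table and 0 to 1 passing glycogen genes, the 1 being Gbe1 without SR4 1 (log2 fold change -1.48). With the replicate number as a block, which the labels do not tie to a shared animal, batch or day, 474 genes and 1 glycogen gene passed, again Gbe1 (log2 fold change -1.16, limma adjusted p = 0.0388, within 0.0228 to 0.204 over the alternatives). Deviations from the group means correlated at 0.174 for the libraries numbered 1 and 0.114 for those numbered 2, but also at 0.103 for vehicle 3 with SR4 2, across genes, which are not independent replicates. With 2 SR4 libraries their deviations mirror each other, so the numbers are not shown to pair the libraries. Phka2 turned to 0.0193 with the replicate block, 0.0299 without vehicle 2 and 0.0144 without vehicle 3, and its leave-one-out range was -0.081 to 0.0299. Ppp1r3g turned to -1.54 without SR4 1, in a leave-one-out range of -1.54 to 2.65. The cause was not tested. The other scalings, filters and pseudocounts changed no call of a glycogen gene. The edgeR test was planned only in case the values were raw counts. Neither edgeR nor DESeq2 was run, because the values were not whole reads. With 2 SR4 libraries, and 1 when either is left out (then assumed to vary like the vehicle group), the spread within SR4 limits the precision of every value.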
